A study of Homo sapiens with 8 samples.

Results

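The genes described here are 9 enzymes that link glutamine, glutamate, aspartate, alanine, proline and arginine: GLUL, GLUD1, GOT1, GOT2, GPT2, ASS1, PYCR1, ALDH18A1 and OAT. They were picked by symbol from a table of 58870 genes, and each symbol matched 1 row. The samples were 8 bulk RNA libraries of Panc 10.05, an established cell line from a human pancreatic ductal adenocarcinoma. The labels name 4 of them as controls and 4 as ELAPOR1 overexpression. The series title ties ELAPOR1, a membrane protein of endosomes and lysosomes, to tumour subtype and metabolism. The labels gave neither the vector nor what the control cells received, and they did not say whether a group came from 1 clone or from separate cultures, so the p-values measure only the spread between these libraries.

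Glutamine is deaminated to glutamate, and GLUL, glutamine synthetase, runs the reverse reaction with ammonia. Glutamate gives its amino group away as ammonia through GLUD1 or to a keto acid through the aminotransferases GOT1, GOT2 and GPT2, and it is the precursor of proline and ornithine through a shared intermediate, pyrroline-5-carboxylate. Pancreatic cancer cells are known for using glutamine carbon through cytosolic aspartate and GOT1 to keep NADPH levels, and many tumours silence ASS1 and then depend on arginine from outside the cell.

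Library depth, in units of 1e6 estimated counts, was 16.6 to 18.1 in control and 13.8 to 17.3 in ELAPOR1 libraries (means 17.2 ± 0.688 and 15.5 ± 1.52, SD, n = 4 each, two-sided exact permutation p = 0.143). ELAPOR1 itself, listed under its older symbol KIAA1324, had 1 to 4 counts in the control libraries and 5910 to 7368 in the ELAPOR1 libraries, so all 8 libraries matched their labels. Levels are given in CPM (counts per 1e6 counts, scaled by TMM between libraries). All 7 epithelial markers were present, with a summed level of 1.2e+04 to 1.33e+04 CPM in control and 1.12e+04 to 1.16e+04 CPM in ELAPOR1 libraries. EPCAM was not called (634 ± 10.6 and 623 ± 16.2 CPM, SD, n = 4 each), while KRT7, KRT19 and CDH1 were called higher and KRT18, MUC1 and KRT8 lower. Of the markers of other cell types, 4 of 6 acinar (PRSS1, CPA1, CPB1, PNLIP), 3 of 4 endocrine (INS, SST, CHGA), 2 of 5 fibroblast (DCN, LUM), 1 of 3 endothelial (CDH5) and 1 of 4 immune (CD3E) were at 0 counts in all libraries. The summed levels of the first 3 lists stayed at or below 4.32 CPM in every library. The endothelial sum was 1.61 to 1.95 CPM in control and 0.576 to 0.865 CPM in ELAPOR1 libraries, almost all of it VWF, which was called lower. The immune sum was 82 to 88.4 and 73.3 to 79.1 CPM, almost all of it CD68, a lysosomal protein, also called lower. The part of these differences in the results was not tested. Of 4 hepatocyte markers, the urea cycle genes ARG1 and OTC were at 0 counts in all libraries, while ALB and the urea cycle gene CPS1 had counts. The hepatocyte sum was 0.531 to 1.95 CPM in control and 0.981 to 2.73 CPM in ELAPOR1 libraries.

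Of the 9 enzymes, 3 were higher and 3 lower in the cells labelled as overexpressing ELAPOR1, and 3 did not pass the test. OAT, GOT2 and ALDH18A1 were higher. GLUL, GPT2 and PYCR1 were lower. The share of 6 in 9 (66.7%) stands beside 44.7% of all 13860 tested genes called at an edgeR adjusted p-value under 0.05 (22.6% higher and 22.1% lower), and beside 51.4% of the 10703 tested genes whose mean reached 5 CPM, as 8 of the 9 did. The control and ELAPOR1 libraries did not overlap in CPM for the same 6, beside 39.2% of all tested genes and 45.3% of those whose mean reached 5 CPM. The median log2 fold change was -0.0118 over the 9 enzymes and 0.000875 over all tested genes. The sizes differed: GLUL changed by more than 2-fold and the other 5 called enzymes by less than 1.5-fold. Bulk counts cannot tell fewer cells with a transcript from less of it per cell.

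**Figure D1:**
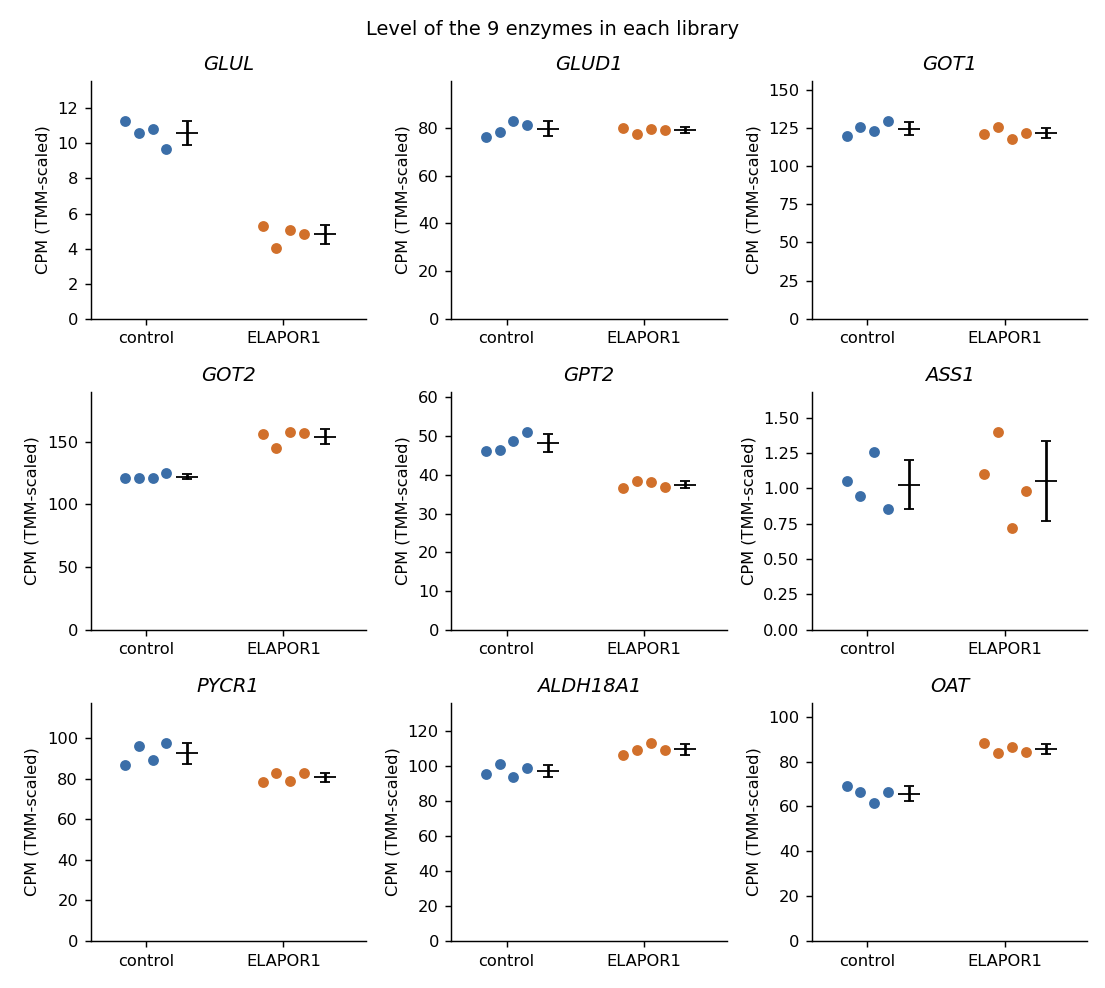
CPM (vertical axis, from 0, its own scale in each panel) of the 9 enzymes in the 4 control libraries (blue) and the 4 ELAPOR1 libraries (orange), with the mean and SD as a black bar at the right of each group. GLUL, GPT2 and PYCR1 lie lower and GOT2, ALDH18A1 and OAT higher in all 4 ELAPOR1 libraries, and GLUD1, GOT1 and ASS1 overlap.

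Promoter sequence was examined for the enzymes found in the supplied RefSeq promoter table (GRCh38.p14, 250 bases before to 50 after a start site), 7 of the 9: GLUL, GLUD1, GOT1, GOT2, ASS1, ALDH18A1 and OAT. GPT2 and PYCR1 were not among them. Exact matches of 4 motifs were sought on both strands in all 35116 promoters of the table. The core of the amino acid response element bound by ATF4, TGATGNAA, was in 3.62% of them. The E-box CACGTG was in 7.26%. The core of the antioxidant response element, TGACNNNGC, was in 13.3%. The TATA box, searched as TATAAA, was in 11.5%. Of the 7 enzymes, GOT1 alone held the amino acid response core, ALDH18A1 and ASS1 the E-box, GOT2 and OAT the antioxidant response core, and none the TATA box. No match overlapped another, and the E-box reads the same on both strands. GLUL and GLUD1 held none of the 4 in this window. The stretches below show each match upstream of a start site, in capitals, with ASNS, asparagine synthetase, as the well-known carrier of an amino acid response element.
ASNS: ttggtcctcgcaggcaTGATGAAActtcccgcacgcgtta
GOT1: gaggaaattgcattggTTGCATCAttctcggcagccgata
ALDH18A1: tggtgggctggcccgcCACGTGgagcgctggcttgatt
ASS1: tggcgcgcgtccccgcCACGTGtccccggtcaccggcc
GOT2: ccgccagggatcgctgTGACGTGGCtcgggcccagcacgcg
The stretches are chr7:97872453-97872492 (minus strand), chr10:99430799-99430838 (minus), chr10:95656826-95656863 (minus), chr9:130444874-130444911 (plus) and chr16:58734348-58734388 (minus), each read 5′ to 3′ on the strand of its gene. The GOT1 match is on the other strand of its gene. The matches start 68, 198, 136, 71 and 56 bases before the start site, in the same order. ASNS and GOT1 share the motif and differed in their values: ASNS fell by 0.84 on the log2 scale and GOT1 did not pass the test. ALDH18A1 and ASS1 share the E-box, and ALDH18A1 rose while ASS1 stayed near 1 CPM in both groups. A match is a run of letters and not a measured binding site.

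GLUL showed the largest change of the 9. Its level in control libraries was 11.3, 10.6, 10.8 and 9.69 CPM (203, 180, 181 and 159 counts). The ELAPOR1 libraries were at 5.28, 4.06, 5.04 and 4.85 CPM (86, 61, 70 and 84 counts). All 4 ELAPOR1 libraries lay below every control library, with no overlap. The log2 fold change was -1.14 (edgeR adjusted p = 8.2e-10, SE 0.118, n = 4 each), a size that 1.69% of tested genes reached or passed in either direction. It was the only one of the 9 called when the test was run against a 1.5-fold change (edgeR glmTreat adjusted p = 4.3e-04), a test that called 1.55% of all tested genes. The gene (ENSG00000135821.18) lies on the minus strand of chromosome 1, chr1:182381704-182392206 in GRCh38, and overlaps no other gene in GENCODE 29. All 4 rows of its pseudogenes were at 0 counts. GLS2, an enzyme of the opposite reaction but not the only one, was at 1.18 ± 0.215 and 1.6 ± 0.314 CPM. It did not pass the test (edgeR adjusted p = 0.198). GLS2 shares 3193 of its 4141 exon bases with SPRYD4 on the opposite strand, at 22.1 ± 0.814 and 22.1 ± 2.33 CPM. The strand setting of the counting is not given, so the value of GLS2 is uncertain.

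GLUD1, glutamate dehydrogenase of the mitochondrial matrix, releases ammonia from glutamate. It was at 76.3, 78.2, 83.1 and 81.3 CPM in control and at 79.9, 77.3, 79.7 and 79.3 CPM in ELAPOR1 libraries. The ELAPOR1 values fell inside the control range. The log2 fold change was -0.012 with a 95% interval of -0.10 to 0.07 (edgeR adjusted p = 0.845). GLUD2, its near-identical intronless copy, had 1 to 6 counts in control and 0 to 1 in ELAPOR1 libraries and was not tested, and the counts of GLUD2 and the GLUD1 pseudogenes together came to at most 1.61% of those of GLUD1 in any library. Whether the counting used strand is not given in the sources used here, so reads of genes that overlap on opposite strands may be mixed. GLUD1 shares 464 exon bases with SHLD2 on the opposite strand, which did not pass the test either (log2 fold change 0.03, edgeR adjusted p = 0.727).

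The aspartate aminotransferases exchange amino groups between glutamate and oxaloacetate on either side of the mitochondrial inner membrane. GOT1, the cytosolic enzyme, was at 120, 126, 123 and 130 CPM in control and at 121, 126, 118 and 122 CPM in ELAPOR1 libraries. These groups overlapped, and the log2 fold change was -0.031 with a 95% interval of -0.10 to 0.04 (edgeR adjusted p = 0.525). GOT1 shares 651 exon bases with the non-coding AL391684.1 on the opposite strand, which fell from 4.48 ± 0.429 to 3.41 ± 0.448 CPM (SD, n = 4 each, edgeR adjusted p = 0.0483).

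GOT2, the mitochondrial enzyme, was at 121, 121, 121 and 125 CPM in control. It was at 156, 145, 158 and 157 CPM in ELAPOR1 libraries. Every ELAPOR1 library lay above every control library. GOT2 rose by 0.34 on the log2 scale (edgeR adjusted p = 1.2e-09, SE 0.0356, n = 4 each). Its pseudogenes held at most 1 count in a library. The gene (ENSG00000125166.13, chr16:58707131-58734357, minus strand) lies on chromosome 16. Its neighbours were taken as the next 10 tested genes on each side whose mean reached 5 CPM, whatever their distance. The starts of these 20 genes were spread over 9.03 Mb. They had a median change of 0.10 on the log2 scale, with 13 of them above 0.

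The ratio of the counts of 2 genes within a library does not depend on how libraries are scaled, and by this measure the pair moved toward GOT2. The log2 ratio of GOT1 to GOT2 counts was -0.01, 0.05, 0.03 and 0.05 in control and -0.37, -0.21, -0.42 and -0.36 in ELAPOR1 libraries. The difference was -0.37, with no overlap (two-sided exact permutation p = 0.0286, n = 4 each). That is the smallest p that 4 against 4 libraries can give, and it was 0.0357 when adjusted over the 5 ratios computed.

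**Figure D2:**
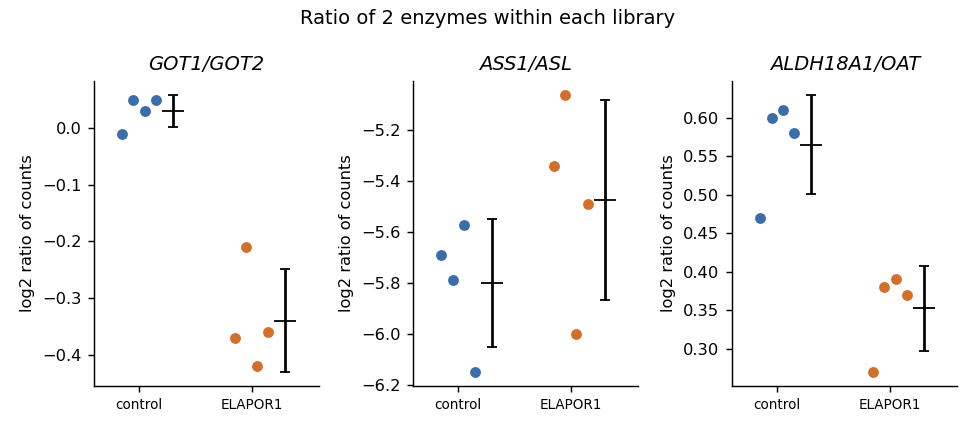
log2 ratio of the counts of 2 enzymes within each library (vertical axis, its own scale in each panel and not from 0) for control (blue) and ELAPOR1 (orange) libraries, with the mean and SD in black. The groups do not overlap for GOT1/GOT2 and ALDH18A1/OAT, and overlap for ASS1/ASL.

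GPT2, the mitochondrial alanine aminotransferase, makes alanine and alpha-ketoglutarate from pyruvate and glutamate. It was at 46.2, 46.4, 48.8 and 51.1 CPM in control and at 36.5, 38.3, 38.2 and 36.9 CPM in ELAPOR1 libraries. All ELAPOR1 libraries were below all controls. It fell by 0.36 on the log2 scale (edgeR adjusted p = 8.2e-07, SE 0.0529, n = 4 each). GPT2 (ENSG00000166123.14, chr16:46884378-46931297, plus strand) also lies on chromosome 16. The starts of its 20 neighbours, the next tested genes whose mean reached 5 CPM, were spread over 18.7 Mb. These neighbours had a median of 0.16, with 15 above 0, and the change of GPT2 was opposite in sign to that median. The part of the region in the GPT2 result was not tested. The cytosolic paralog of GPT2, GPT, had 4 to 9 counts in control and 3 to 5 in ELAPOR1 libraries and was not tested. These GPT counts were 0.38 ± 0.111 CPM in control and 0.259 ± 0.07 CPM in ELAPOR1 libraries.

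The enzymes around pyrroline-5-carboxylate did not move one way. ALDH18A1, pyrroline-5-carboxylate synthase, which commits glutamate to this route, was at 95.4, 101, 93.3 and 98.8 CPM in control and at 106, 109, 113 and 109 CPM in ELAPOR1 libraries. The groups did not overlap. ALDH18A1 rose by 0.17 on the log2 scale (edgeR adjusted p = 4.2e-04, SE 0.0385, n = 4 each), a size that 50.9% of tested genes reached or passed. Its neighbours on chromosome 10 were higher too: the 20 nearest tested genes whose mean reached 5 CPM had a median of 0.21, with 17 above 0. The part of this shared shift in the ALDH18A1 result was not tested. The gene (ENSG00000059573.9) spans chr10:95605929-95656706 on the minus strand.

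OAT, ornithine aminotransferase, joins ornithine to pyrroline-5-carboxylate in the mitochondrion, and pancreatic tumours are known to use it to make ornithine from glutamine. It was at 69.0, 66.3, 61.3 and 66.3 CPM in control and at 88.3, 83.6, 86.5 and 84.2 CPM in ELAPOR1 libraries. The lowest ELAPOR1 library stood clear of the highest control library. OAT rose by 0.38 on the log2 scale (edgeR adjusted p = 6.9e-09, SE 0.0435, n = 4 each), the largest rise of the 9. Its 20 neighbours on chromosome 10 (chr10:124397303-124418976 for OAT, ENSG00000065154.11, minus strand) had a median of 0.09, with 15 above 0. The part of the region in the OAT result was not tested. OAT overlaps no other gene in GENCODE 29.

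OAT rose more than ALDH18A1. The log2 ratio of ALDH18A1 to OAT counts was 0.47, 0.60, 0.61 and 0.58 in control and 0.27, 0.38, 0.39 and 0.37 in ELAPOR1 libraries. That is a difference of -0.21 with no overlap (two-sided exact permutation p = 0.0286, 0.0357 over 5 ratios, n = 4 each).

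PYCR1, the mitochondrial reductase that turns pyrroline-5-carboxylate into proline, was at 86.9, 96.0, 89.3 and 97.7 CPM in control and at 78.4, 82.7, 78.9 and 82.7 CPM in ELAPOR1 libraries. The groups did not overlap, although the highest ELAPOR1 library came close to the lowest control. PYCR1 fell by 0.20 on the log2 scale (edgeR adjusted p = 3.4e-04, SE 0.0431, n = 4 each). The gene (ENSG00000183010.16, chr17:81932384-81942412, minus strand) overlaps AC145207.4, AC145207.1 and MYADML2, all at 0 counts in every library.

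PYCR3, the cytosolic reductase linked to ornithine-derived substrate, rose from 36.6 ± 3.33 to 44.8 ± 1.34 CPM (SD, n = 4 each, log2 fold change 0.30, edgeR adjusted p = 9.9e-05), while PYCR1 fell. The difference between the changes of PYCR1 and PYCR3 was not tested.

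On the side of proline breakdown, PRODH, proline dehydrogenase, had 0 to 1 counts in every library, and PRODH2 had none. ALDH4A1, which oxidises pyrroline-5-carboxylate back to glutamate, was at 8.89 ± 1.54 CPM in control and 9.89 ± 1.79 CPM in ELAPOR1 libraries (SD, n = 4 each, log2 fold change 0.16, 95% interval -0.11 to 0.42, edgeR adjusted p = 0.350). The proline list leaves out the 9 enzymes, so the called ALDH18A1, OAT and PYCR1 are not counted in it. Of its 6 tested genes, PYCR3 alone was called. That is 16.7%, beside 44.7% of all tested genes and 51.4% of those whose mean reached 5 CPM.

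**Figure D3:**
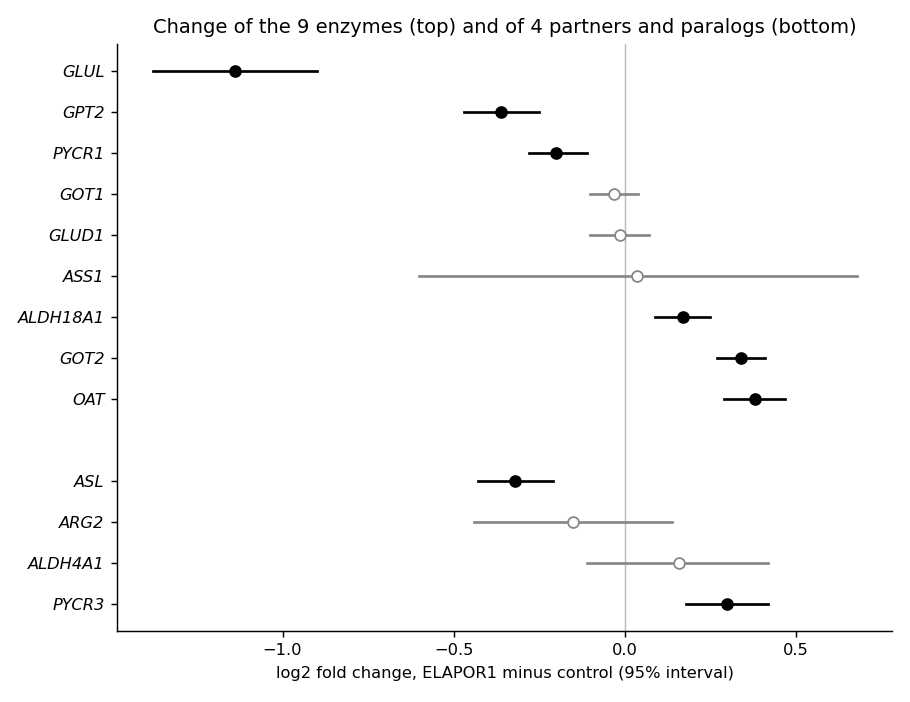
log2 fold change (horizontal axis, ELAPOR1 minus control) with its 95% interval for the 9 enzymes (upper block) and for 4 partners and paralogs (lower block). Filled black points passed an edgeR adjusted p-value of 0.05 and open grey points did not, and the interval of ASS1 (-0.60 to 0.68) is the widest.

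ASS1, argininosuccinate synthase, joins citrulline and aspartate in the step that limits arginine synthesis. It was barely present, at 1.05, 0.944, 1.26 and 0.854 CPM in control (19, 16, 21 and 14 counts). The ELAPOR1 libraries were at 1.10, 1.40, 0.720 and 0.981 CPM (18, 21, 10 and 17 counts). The groups overlapped, and the log2 fold change was 0.035 (edgeR adjusted p = 0.940, SE 0.315). The 95% interval ran from -0.60 to 0.68, so changes of up to about those sizes remained possible. Of its 11 pseudogene rows, ASS1P2 alone had counts, 0 to 3 per library. The gene (ENSG00000130707.17) spans chr9:130444929-130501274 on the plus strand.

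ASL, which cleaves argininosuccinate into arginine and fumarate, fell from 56.8 ± 4.11 to 45.5 ± 1.21 CPM (SD, n = 4 each, log2 fold change -0.32, SE 0.0525, edgeR adjusted p = 5.7e-06). The log2 ratio of ASS1 to ASL counts was -5.69, -5.79, -5.57 and -6.15 in control and -5.34, -5.06, -6.00 and -5.49 in ELAPOR1 libraries. These overlapped, and the difference of 0.32 was not larger than the spread (two-sided exact permutation p = 0.229, also 0.229 over 5 ratios, n = 4 each). ARG2, the mitochondrial arginase, was at 5.08 ± 0.508 CPM in control and 4.58 ± 0.192 CPM in ELAPOR1 libraries (edgeR adjusted p = 0.432). It shares 904 of its 2418 exon bases with VTI1B on the opposite strand, at 125 ± 4.8 and 124 ± 2.85 CPM, so its value is uncertain.

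Levels of different genes were compared per length, as CPM from total counts per kb of merged exons, with the mean and SD of 4 libraries in each group. GOT1 was at 36.7 ± 1.11 in control and 36.4 ± 0.908 in ELAPOR1 libraries, and GOT2 at 32.1 ± 0.569 and 41.2 ± 1.59. Their order in control depends on the length used: GOT1 was the higher per merged exon length, and per length of the longest transcript GOT2 (49.1 ± 0.87) was above GOT1 (42.3 ± 1.28), as was PYCR1 (48.1 ± 2.59). PYCR1 was at 31.8 ± 1.71 in control and 28.1 ± 0.785 in ELAPOR1 libraries, and ALDH18A1 at 25.5 ± 0.809 and 29.2 ± 0.858. In control the ranges of GOT2 and PYCR1 overlapped, and in ELAPOR1 libraries those of PYCR1 and ALDH18A1 did. Such ranges do not compare 2 genes within a library, and the order of these neighbours was not tested. Per length of the longest transcript, PYCR1 (41.4 to 43.7) was above ALDH18A1 (31.8 to 34.1) in ELAPOR1 libraries. GLUD1 was at 22.5 ± 0.846 and 22.6 ± 0.346. OAT was at 19.2 ± 0.955 and 25.4 ± 0.65. OAT lay below GLUD1 in every control library and above it in every ELAPOR1 library per merged exon length, but per length of the longest transcript it lay above GLUD1 in control too (29.7 to 33.5 against 25 to 27.1). GPT2 was at 7.51 ± 0.357 and 5.93 ± 0.152. GLUL was at 1.16 ± 0.0746 and 0.535 ± 0.0589. ASS1 was at 0.334 ± 0.0572 and 0.347 ± 0.0926. GLUL and ASS1 stood apart in control and their ranges overlapped in ELAPOR1 libraries. ASL was at 17.6 ± 1.28 and 14.3 ± 0.404, above ASS1 in both groups.

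**Figure D4:**
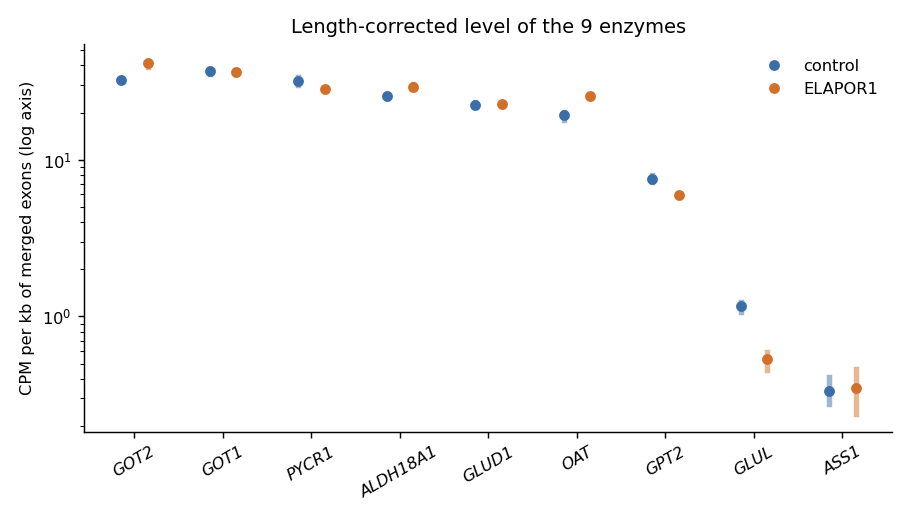
CPM per kb of merged exons (log axis) for the 9 enzymes, ordered by their mean over the 8 libraries, with the mean as a point and the range of the 4 libraries as a bar for control (blue) and ELAPOR1 (orange). GOT2, GOT1, PYCR1, ALDH18A1, GLUD1 and OAT lie between 18 and 42.3 in every library, and GLUL and ASS1 at or below 1.24.

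The wider pathway was read from 7 lists, which leave out the 9 enzymes, with 78 genes that the table holds, each counted once. Of these, 65 were tested and 44 were called, 16 higher and 28 lower. That is 67.7%, beside 44.7% of all tested genes and 51.4% of those whose mean reached 5 CPM. Of the 28 called lower, 12 are on the amino acid response list, and the lists were chosen with earlier results of these data known. Among the 9 tested genes of glutamine and glutamate metabolism, 6 were called (66.7%, beside the same 44.7% and 51.4%), 3 in each direction. ALDH5A1, succinic semialdehyde dehydrogenase at the end of the GABA route, rose from 12 ± 1.34 to 21.8 ± 1.41 CPM (SD, n = 4 each, log2 fold change 0.85, edgeR adjusted p = 3.9e-10). OPLAH, which frees glutamate from 5-oxoproline, fell from 15.4 ± 1.94 to 8.77 ± 0.283 CPM (-0.81, edgeR adjusted p = 2.2e-08). PSAT1, the aminotransferase of serine synthesis that spends glutamate, fell from 191 ± 4.17 to 138 ± 2.25 CPM (-0.47, edgeR adjusted p = 8.0e-14).

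Enzymes that take nitrogen from the amide of glutamine were split. The list had 10 tested genes, among them CPS1, a relative of these enzymes that uses free ammonia and was not called. Of the 10, 8 were called, 4 higher and 4 lower. That is 80%, beside 44.7% of all tested genes and 51.4% of those whose mean reached 5 CPM. The number called lower was 3 under the replicate block, in DESeq2's test, with total counts as the scaling and without a filter. It was also 3 without any 1 of 6 of the libraries, and at an adjusted p-value limit of 0.01. Tested against a 1.5-fold change, 1 was called lower. ASNS, which makes asparagine, fell from 111 ± 6.68 to 62.4 ± 1.03 CPM (SD, n = 4 each, log2 fold change -0.84, edgeR adjusted p = 4.3e-17), and NADSYN1, of NAD synthesis, from 43.3 ± 1.57 to 34.8 ± 1.52 CPM (-0.31, edgeR adjusted p = 1.6e-05). ASNS shares 1985 of its 4455 exon bases with AC079781.5 on the same strand, at 6.02 ± 2.67 and 3.87 ± 0.737 CPM. CAD, the first enzyme of pyrimidine synthesis, rose from 175 ± 2.56 to 216 ± 6.76 CPM (0.30, edgeR adjusted p = 1.3e-09), and PFAS, of purine synthesis, from 40.7 ± 2.24 to 47.9 ± 1.93 CPM (0.24, edgeR adjusted p = 4.8e-04). The other nucleotide enzymes CTPS1 and PPAT were called higher, and GMPS and CTPS2 lower (CTPS2 with an edgeR adjusted p = 0.0481).

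Of the 8 tested genes of arginine, citrulline and nitric oxide metabolism, 6 were called, 2 higher and 4 lower. That is 75%, beside 44.7% of all tested genes and 51.4% of those whose mean reached 5 CPM. NOS3, endothelial nitric oxide synthase, fell from 11.2 ± 0.481 to 6.45 ± 0.648 CPM (SD, n = 4 each, log2 fold change -0.80, edgeR adjusted p = 1.9e-07). It shares 786 exon bases with ATG9B on the opposite strand, which fell from 36.6 ± 4.87 to 13.6 ± 1.67 CPM, so the value of NOS3 is uncertain. The endothelial marker VWF fell too, from 1.69 ± 0.177 to 0.761 ± 0.137 CPM, with CDH5 at 0, and its part in the NOS3 result was not tested. DDAH2 (-0.34, edgeR adjusted p = 3.2e-07) and DDAH1 (-0.20, edgeR adjusted p = 6.2e-05), which clear methylated arginine, fell as ASL did. AGMAT, annotated as an agmatinase that would make putrescine from decarboxylated arginine, lies below the 5 CPM of the naming rule and was chosen after its values were seen. It had 1, 1, 5 and 1 counts in control and 35, 43, 33 and 48 counts in ELAPOR1 libraries. The ratio of summed counts per total was 21.9 (exact 95% interval 10.9 to 51.7, for counting error only), and the fitted log2 fold change was 4.35 (edgeR adjusted p = 1.4e-10), or 5.27 without control replicate 3, which held 5 of the control counts. AGMAT shares 82 of its 2500 exon bases with DNAJC16 on the opposite strand, at 14.8 ± 0.330 CPM in control and 17.0 ± 0.905 CPM in ELAPOR1 libraries.

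Ornithine, the product of arginase and of OAT, feeds polyamine synthesis. On that list 7 of 11 tested genes were called (63.6%, beside 44.7% of all tested genes and 51.4% of those whose mean reached 5 CPM). The 3 called synthesis genes were all higher. AMD1, which supplies the aminopropyl donor, rose from 71.6 ± 3.83 to 101 ± 3.23 CPM (SD, n = 4 each, log2 fold change 0.49, edgeR adjusted p = 1.8e-11). SRM, spermidine synthase, rose from 45.7 ± 3.57 to 59.8 ± 1.61 CPM (0.39, edgeR adjusted p = 1.5e-07), and ODC1, which decarboxylates ornithine, from 177 ± 5.51 to 231 ± 2.38 CPM (0.38, edgeR adjusted p = 4.7e-12). SMS, spermine synthase, was at 303 ± 5.57 and 311 ± 4.77 CPM and did not pass the test (edgeR adjusted p = 0.283). The 4 called lower were OAZ2 (-0.20, edgeR adjusted p = 4.7e-04) and OAZ1, antizymes that lead ODC1 to degradation, AZIN1, which inhibits antizymes, and SAT1, which acetylates polyamines for export or breakdown. The control and ELAPOR1 ranges overlapped for OAZ1 and OAZ2.

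GOT1 and GOT2 work in the malate-aspartate shuttle, which carries NADH equivalents into mitochondria. Of 7 tested shuttle and carrier genes, 4 were called (57.1%), a share near the 51.4% of all tested genes whose mean reached 5 CPM. SLC25A12, an aspartate-glutamate carrier, rose from 20.7 ± 1.80 to 26.0 ± 1.68 CPM (SD, n = 4 each, log2 fold change 0.33, edgeR adjusted p = 3.0e-04). MDH2, mitochondrial malate dehydrogenase, fell from 247 ± 8.02 to 226 ± 5.55 CPM (-0.13, edgeR adjusted p = 9.6e-04). SLC25A15, an ornithine carrier, was called lower (-0.23, edgeR adjusted p = 0.0144), as was SLC25A22, a glutamate carrier (-0.11, edgeR adjusted p = 0.0416). The call of SLC25A15 was lost without control replicate 2 (edgeR adjusted p = 0.0704), and that of SLC25A22 under 13 of 18 alternative settings. MDH1, SLC25A11 and SLC25A13 did not pass the test.

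Genes of the amino acid response, which ATF4 drives when amino acids run short, were mostly lower. Of 16 tested, 14 were called, 12 lower and 2 higher. That is 87.5%, beside 44.7% of all tested genes and 51.4% of those whose mean reached 5 CPM. The list was chosen with earlier results of these data known. The median over its tested genes was -0.522 on the log2 scale. ASNS and PSAT1 are on this list and on another above. ATF4 itself fell from 372 ± 23.8 to 259 ± 3.86 CPM (SD, n = 4 each, log2 fold change -0.53, edgeR adjusted p = 1.1e-13). CHAC1, which degrades glutathione, fell by 0.92 (edgeR adjusted p = 1.2e-07) and DDIT4, an mTORC1 inhibitor, by 0.64 on the log2 scale (edgeR adjusted p = 3.6e-13). ATF5 rose from 42.8 ± 2.09 to 80.5 ± 1.76 CPM (0.91, edgeR adjusted p = 2.3e-17). It shares 626 of its 2954 exon bases with NUP62 on the opposite strand, which rose from 160 ± 2.64 to 203 ± 3.76 CPM. Of the 9 enzymes, GPT2, PYCR1 and ALDH18A1 have been described elsewhere as ATF4 targets, and here GPT2 and PYCR1 were lower and ALDH18A1 higher.

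**Figure D5:**
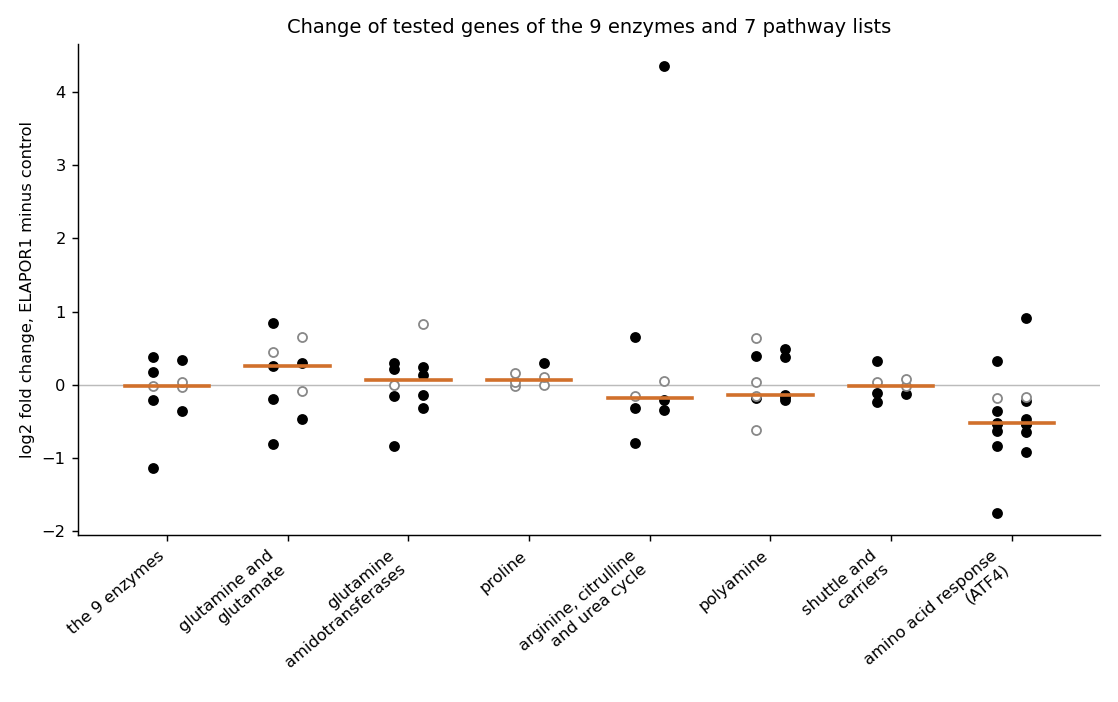
log2 fold change (vertical axis, ELAPOR1 minus control) of each tested gene of the 9 enzymes and of 7 pathway lists, with the list's median as an orange line. Filled points passed an edgeR adjusted p-value of 0.05, open points did not; medians lie between -0.522 (amino acid response) and 0.259 (glutamine and glutamate), and the single point at 4.35 is AGMAT.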

How the data were processed

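The authors deposited 1 table of expected counts per gene (estimated counts as RSEM gives them, from the table's name), 1 column per library, unscaled; 15.0% of nonzero values were not whole. The submitters' processing notes name cutadapt, STAR, RSEM, DESeq2 and hg38 without versions or roles; annotation release and strand setting are not given in the sources used here. No other per-sample columns were present (0).

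After rounding, genes were fitted in edgeR 4.0.16 (R 4.3.3): filterByExpr, TMM, robust glmQLFit and glmQLFTest, two-sided, no covariate, Benjamini-Hochberg over 13860 genes, with an adjusted p-value of 0.05 as the limit for a call. The SE is the log2 fold change divided by the square root of F. The procedure was tested on simulated data. CPM means counts per 1e6. Coordinates, exon lengths and overlaps come from GENCODE 29 (GRCh38), where 58597 of 58870 identifiers were found without version.

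Members and lists were chosen with earlier results of these data known. Named genes are ELAPOR1, the 9 enzymes, 9 partners or paralogs, and up to 4 called genes per list with the largest change and a mean of at least 5 CPM; some of these, with the ratios that use them, are not reported here. Other list genes with values in the text, AGMAT, ATF4, GLS2 and SMS and those under other observations, were chosen after their values were seen. Alternatives covered scaling, filters, DESeq2 1.42.0, limma-voom (limma 3.58.1), a replicate block, stricter thresholds and each library left out. Library pairs of one group differed by 1.93 to 6.16 times the chi-square of counting noise, so none was the same library sequenced again. This check cannot tell libraries of separate cultures from libraries made anew from 1 culture. Figures were drawn with matplotlib 3.10.9.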

Additional observations from a re-analysis of the deposited data

Results flagged for a closer look

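In 3 of 76 groups of 4 libraries, the extreme library was separated from its nearest neighbour by more of the range than Dixon's 95% limit allows. Chance flags about 1 in 20 groups, or 3.8 here. GOT2 was at 125 CPM in control replicate 4 and at 121 CPM in each other control library. GOT2 was also at 145 CPM in ELAPOR1 replicate 2, against 156 to 158 CPM in the other ELAPOR1 libraries, which is still above every control library. ALDH5A1 was at 23.9 CPM in ELAPOR1 replicate 3 and at 20.9 to 21.2 CPM in the others. No cause of these gaps was tested.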

How the results depend on the processing

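GLUL kept its direction and its call under all 18 alternatives and the other 5 called enzymes under 17, with log2 fold changes of -1.19 to -1.07 for GLUL, 0.33 to 0.37 for GOT2, -0.39 to -0.33 for GPT2, -0.23 to -0.17 for PYCR1, 0.15 to 0.19 for ALDH18A1 and 0.35 to 0.40 for OAT. For those 5 the exception was testing against 1.5-fold, which by its construction asks for a larger effect. It called GLUL alone among the 9 (0 higher, 1 lower), and lost GOT2 (0.34), GPT2 (-0.36), PYCR1 (-0.20), ALDH18A1 (0.17) and OAT (0.38); over the pathway lists it called 3 higher and 2 lower, and over all tested genes 124 higher and 91 lower. GLUD1 (-0.04 to 0.01), GOT1 (-0.05 to -0.01) and ASS1 (-0.12 to 0.17) were called under none of the 18. With the replicate number as a block, 3 enzymes were called higher and 3 lower as before, and 5926 genes were called in place of 6193. The deviations of same-numbered libraries from their group means had correlations of -0.0379 to 0.0203 over all tested genes. Counting noise enters these values, so they cannot decide whether the numbers pair libraries. No scaling moved the median of all tested genes by more than 0.022. The differences of the 5 ratios kept their sign with each library left out and with a pseudocount of 0.5. Levels per kb rise with the longest transcript as length, to 56.1 for GOT2, 45.4 for PYCR1, 42.1 for GOT1, 37.0 for OAT, 30.7 for ALDH18A1, 26.1 for GLUD1, 10.1 for GPT2, 1.25 for GLUL and 0.526 for ASS1, which puts PYCR1 above GOT1 and OAT above ALDH18A1 and GLUD1. Depth limits ASS1 most, with 10 to 21 counts per library.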

Other observations

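Other reactions of these amino acids were measured beside the routes above. GAD1, which makes GABA from glutamate, rose from 12.7 ± 0.420 to 15.2 ± 0.867 CPM (SD, n = 4 each, log2 fold change 0.26, edgeR adjusted p = 0.0118), while ABAT, which passes the amino group of GABA on, was at 0.934 ± 0.396 and 1.48 ± 0.383 CPM and did not pass the test (edgeR adjusted p = 0.102). NAGS, whose product activates the first urea cycle enzyme, rose from 2.36 ± 0.455 to 3.73 ± 0.213 CPM (0.66, edgeR adjusted p = 5.2e-03), and CPS1, that enzyme, was at 1.03 ± 0.512 and 1.84 ± 0.798 CPM (edgeR adjusted p = 0.0737). Genes that modify or release proline did not pass the test. P4HA1, a prolyl hydroxylase of collagen, was at 27.0 ± 2.73 and 26.8 ± 1.44 CPM (edgeR adjusted p = 0.902), and P4HA2, another, at 18.8 ± 0.528 and 20.4 ± 1.45 CPM (edgeR adjusted p = 0.221). PEPD, which frees proline from dipeptides, was at 31.5 ± 1.85 and 32.3 ± 2.43 CPM (edgeR adjusted p = 0.704). BCAT1, the cytosolic branched-chain aminotransferase, fell from 46.7 ± 2.88 to 40.8 ± 1.99 CPM (-0.19, edgeR adjusted p = 4.1e-03).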
